A study of Rattus norvegicus with 6 samples.

Results

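The 8 genes described here encode enzymes of cardiac energy metabolism, and they were found in the deposited expression table by their exact symbols: Pygb, Eno3, Pgam1, Tkt, Gpd1, Cpt1b, Hadh and Ckmt2. Each has 1 row among the 3221 rows of the table. They were chosen by their FPKM levels in these same libraries, with serum from children with dilated cardiomyopathy (DCM) set against serum from nonfailing (NF) children, so the differences between sera below are descriptions and carry no test. The cells were neonatal rat ventricular myocytes (NRVMs), heart muscle cells isolated from the ventricles of Sprague-Dawley rats at 2 days after birth according to the sample labels. The comparison asks what DCM serum does to gene expression in such cells relative to NF serum. There were 3 NF serum–treated and 3 DCM serum–treated libraries, and each library pooled 2 independent RNA preparations. The study's methods give 3 NRVM preparations, but the labels do not name the preparation of a library. Here 1 library of each serum was assigned to each preparation, called A, B and C. The assignment was inferred from the headers of the deposited ratios, which name the NF library that each DCM library was divided by. The labels give 1% serum for 72 hours, whereas the study's methods describe 2% serum over 48 to 72 hours. As labelled, 1 pair of sample numbers belongs to both the B and the C library with NF serum, and the 3 DCM libraries have pairs of their own. A culture of this kind can also hold cells other than myocytes.

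Heart muscle makes most of its ATP by oxidizing fatty acids in mitochondria, and newborn heart still relies more on glucose than adult heart does. Glycogen phosphorylase releases glucose units from glycogen, glycolysis turns them into pyruvate, and the pentose phosphate pathway branches from glycolysis to make NADPH and ribose. A further branch reduces a glycolytic intermediate to glycerol phosphate, which feeds lipid synthesis and a shuttle for reducing equivalents. Long-chain fatty acids enter mitochondria through the carnitine shuttle and are shortened by beta-oxidation. Creatine kinase in mitochondria passes the energy of ATP on to phosphocreatine, which carries it to the contractile filaments.

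With DCM serum, transcripts for 5 of the 8 enzymes were higher in all 3 preparations and transcripts for 3 were lower in all 3. The higher ones were the mitochondrial creatine kinase Ckmt2, the glycerol phosphate dehydrogenase Gpd1, the carnitine palmitoyltransferase Cpt1b, the phosphoglycerate mutase Pgam1 and the transketolase Tkt. The lower ones were the muscle enolase Eno3, the hydroxyacyl-CoA dehydrogenase Hadh and the glycogen phosphorylase Pygb. Values are given in FPKM, the number of sequenced fragments scaled to exon length and to library size, a level that can be compared between genes. Differences are given as the log2 ratio of DCM to NF FPKM within a preparation, and their error is the SD over the 3 preparations. All 3221 rows of the table passed the authors' threshold for a difference between the sera (q under 0.10), and 252 rows were higher and 2969 lower in all 3 preparations, so 1 direction in every preparation comes with a place in this table. Over all rows, the log2 ratio had a median of -0.17 in preparation A, -0.40 in B and -0.25 in C. In the limma fit of all rows with preparation as a block, all 8 enzymes were called at an adjusted p under 0.10, as were 67.8% of all rows, so nothing is read from that count.

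**Figure D1:**
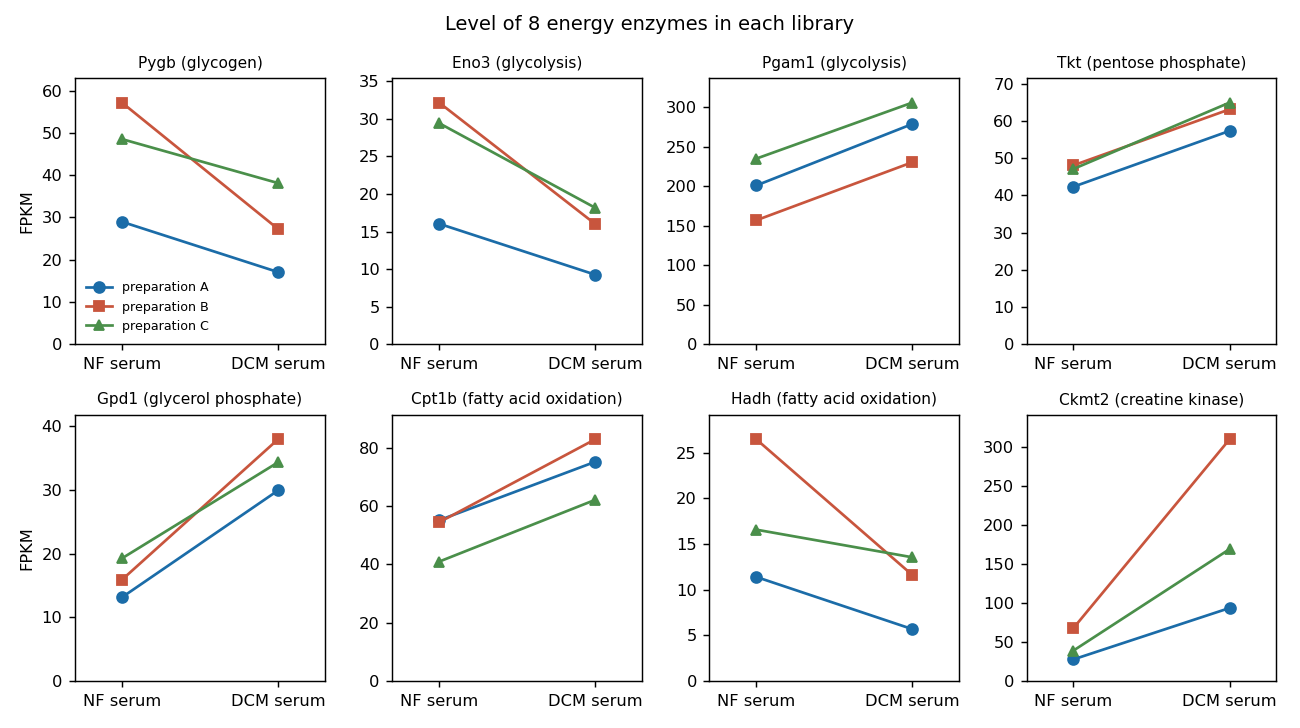
FPKM (vertical axes, each from 0) of the 8 enzymes with NF serum and with DCM serum, where each line joins the 2 libraries of 1 NRVM preparation. Ckmt2, Gpd1, Tkt and Cpt1b lay higher in each DCM library than in any NF library, whereas the ranges of the other 4 overlapped.

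Ckmt2, the sarcomeric mitochondrial creatine kinase, had the largest difference of the 8. In preparations A, B and C, NF serum gave a level of 27.6, 67.7 and 38.9 FPKM, and with DCM serum it was 93.3, 309 and 169 FPKM. Even the lowest DCM library lay above the highest NF library, although NF libraries differed by up to 2.46-fold among themselves. The mean went from 44.7 ± 20.7 to 190.4 ± 109.6 FPKM (SD, n = 3 each). The log2 ratios were 1.76, 2.19 and 2.12 in A, B and C, with a mean of 2.02 ± 0.23 that corresponds to 4.06-fold. That mean ranked 3rd from the top of the 3221 rows. The level of Ckmt2 therefore differed strongly between preparations, with the highest value in B under both sera. Its ratio differed less, from 3.39-fold in A to 4.57-fold in B.

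The 250 bases before the annotated start of Ckmt2 are shown because this gene had the largest ratio. The sequence is RefSeq's, in the GRCr8 build at chr2:24845512-24845761 on the minus strand, written 5′ to 3′ on the strand of the gene. Capitals mark a CCAAT motif read on the other strand and a GC box (GGGCGG), also on the other strand.
Ckmt2: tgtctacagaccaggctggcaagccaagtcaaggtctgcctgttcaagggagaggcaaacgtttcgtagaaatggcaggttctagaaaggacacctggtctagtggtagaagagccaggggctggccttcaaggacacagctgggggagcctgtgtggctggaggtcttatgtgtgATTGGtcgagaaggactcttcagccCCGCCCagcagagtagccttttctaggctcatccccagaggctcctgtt
The CCAAT match begins 74 bases and the GC box 49 bases before the start. Of the 33469 promoters of the reference table, cut to the same 250 bases, 34% hold CCAAT and 30.5% hold GGGCGG on either strand, so both are common.

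In fatty acid oxidation, the entry step and a later step of the cycle differed in opposite directions. Cpt1b, the muscle form of carnitine palmitoyltransferase that commits long-chain fatty acids to mitochondrial entry, was at 55.2, 54.5 and 41.0 FPKM with NF serum in preparations A, B and C. With DCM serum it was at 75.3, 83.0 and 62.2 FPKM, again with no overlap between the groups. Its log2 ratios were 0.45, 0.61 and 0.60 (mean 0.55 ± 0.09, 1.47-fold). Hadh, which oxidizes hydroxyacyl-CoA of short and medium chains inside mitochondria, was at 11.4, 26.5 and 16.6 FPKM with NF serum. It was at 5.67, 11.6 and 13.5 FPKM with DCM serum. The groups overlapped for Hadh, because the NF library of preparation A was below the DCM libraries of B and C. Its log2 ratios were -1.01, -1.19 and -0.29 (mean -0.83 ± 0.48), so the decrease was 2.01-fold in A and 2.28-fold in B but 1.22-fold in C. Hadh was the enzyme with the largest SD of the ratio, and the only one of the 8 not called by the paired limma fit when preparation A or preparation B was left out. Within a library, the level of Cpt1b was 4.85, 2.06 and 2.48 times that of Hadh with NF serum and 13.3, 7.16 and 4.60 times with DCM serum.

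In glycolysis, transcripts for the enzymes of 2 successive reactions also differed in opposite directions. Pgam1, the widely expressed phosphoglycerate mutase, had the highest level of the 8 in 5 of the 6 libraries. It was at 201, 157 and 235 FPKM with NF serum in preparations A, B and C and at 279, 231 and 306 FPKM with DCM serum. The groups overlapped, since the DCM library of B lay just under the NF library of C, yet the log2 ratios of 0.47, 0.55 and 0.38 were close together (mean 0.47 ± 0.09, 1.38-fold). Eno3, the muscle form of enolase, which acts on the product of the mutase, was at 16.04, 32.2 and 29.4 FPKM with NF serum. It was at 9.25, 16.001 and 18.2 FPKM with DCM serum. The highest DCM value was above the NF value of preparation A, so these groups overlapped as well. The log2 ratios of Eno3 were -0.79, -1.01 and -0.70 (mean -0.83 ± 0.16), a 1.78-fold decrease. Pgam1 was 12.5, 4.88 and 7.99 times the level of Eno3 with NF serum and 30.1, 14.4 and 16.9 times with DCM serum. The reference annotation lists 13 pseudogenes named after Pgam1, so reads of Pgam1 may have been divided among near-identical copies. Its 31 enolase pseudogenes are all named after another enolase, Eno1, and none after Eno3. Eno3 overlaps Spag7 there, and whether the authors' counting used the strand of the directional libraries is not given in the sources used here.

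The promoters of Pgam1 and Eno3 are printed side by side because these enzymes act in sequence and differed in direction. Both are RefSeq sequences of 250 bases before the start in GRCr8, on the plus strand, at chr1:250672902-250673151 for Pgam1 and chr10:55868936-55869185 for Eno3. Capitals mark GC boxes (GGGCGG, or CCGCCC where it lies on the other strand).
Pgam1: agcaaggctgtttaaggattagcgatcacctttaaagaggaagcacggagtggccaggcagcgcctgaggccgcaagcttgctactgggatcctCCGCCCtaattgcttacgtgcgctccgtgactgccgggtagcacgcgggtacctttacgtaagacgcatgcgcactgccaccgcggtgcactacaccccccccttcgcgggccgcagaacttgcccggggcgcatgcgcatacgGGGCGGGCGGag
Eno3: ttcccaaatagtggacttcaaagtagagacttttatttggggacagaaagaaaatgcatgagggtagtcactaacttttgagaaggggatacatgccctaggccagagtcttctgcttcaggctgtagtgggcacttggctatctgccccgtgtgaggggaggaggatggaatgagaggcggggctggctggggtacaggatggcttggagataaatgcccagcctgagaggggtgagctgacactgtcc
The Pgam1 window holds 25 CG dinucleotides at 63.6% G and C, and the Eno3 window holds 2 at 52.4%, against medians of 5 and 51.2% over all promoters of that length. Pgam1 has 3 GC boxes, of which the 2 nearest the start overlap, and Eno3 has none.

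The same windows were read for 6 of the 8 enzymes (Pygb, Eno3, Pgam1, Tkt, Hadh and Ckmt2), with both strands searched, and Gpd1 and Cpt1b were not read. GGGCGG was found in 4 of the 6 (Ckmt2, Hadh, Pgam1 and Pygb), of which 2 were higher and 2 lower with DCM serum. TATAAA was found only in Tkt (12.9% of all promoters), and CCAAT only in Ckmt2. The core motifs of hypoxia response elements were ACGTG, found in Pgam1 and Pygb (16.6% of all), and GCGTG, found in Pgam1 and Hadh (25.9% of all). ACGTG is also a part of the E-box CACGTG. No window of the 6 held CACGTG (5.59% of all), the estrogen-related receptor motif TCAAGGTCA (0.388%), the PPAR direct repeat (0.0508%), the glucocorticoid receptor element (0.373%) or the MEF2 motif (2.96%). These matches describe letters in the GRCr8 build and not sites in use.

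In the pentose phosphate pathway, Tkt had the steadiest ratio of the 8. Transketolase passes carbon units between sugar phosphates and links the pathway back to glycolysis. Its level was 42.4, 48.1 and 47.1 FPKM with NF serum in preparations A, B and C, and 57.4, 63.2 and 65.0 FPKM with DCM serum. The groups did not overlap, and the libraries of 1 serum differed by no more than 1.14-fold. The log2 ratios of 0.44, 0.39 and 0.46 had a mean of 0.43 ± 0.04, or 1.35-fold.

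Gpd1, the cytosolic glycerol phosphate dehydrogenase, was the lowest or next to lowest of the 8 in each NF library. It was at 13.1, 15.9 and 19.3 FPKM with NF serum in preparations A, B and C. With DCM serum it was at 29.9, 38.0 and 34.4 FPKM, and each of these was above all NF values. The mean went from 16.1 ± 3.07 to 34.1 ± 4.03 FPKM (SD, n = 3 each). Its log2 ratios were 1.19, 1.26 and 0.83 (mean 1.09 ± 0.23, 2.13-fold), next after Ckmt2 among the 8.

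Pygb, the brain form of glycogen phosphorylase, was at 29.0, 57.2 and 48.6 FPKM with NF serum in preparations A, B and C. It was at 17.1, 27.3 and 38.1 FPKM with DCM serum. As with Hadh, the groups overlapped, and the decrease was smallest in preparation C. The log2 ratios were -0.76, -1.07 and -0.35 (mean -0.73 ± 0.36), which is 1.70-fold, 2.10-fold and 1.27-fold lower. Of the 5 higher enzymes, 4 had DCM libraries that all lay above the NF libraries. So did 88 of the 252 rows that were higher in all 3 preparations (2.73% of all rows). Of the 3 lower enzymes, none had DCM libraries that all lay below, whereas 827 of the 2969 lower rows did (25.7% of all rows).

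**Figure D2:**
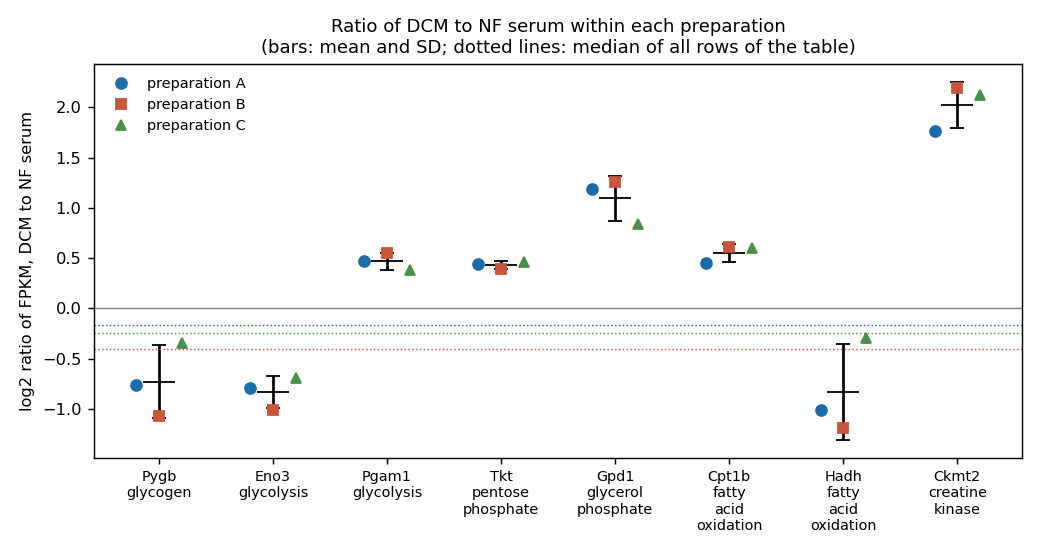
Log2 ratio of DCM to NF FPKM (vertical axis) of each enzyme in preparations A, B and C, with the mean and SD over the 3 preparations in black and the median ratio of all rows of each preparation as a dotted line. Hadh and Pygb in preparation C, at -0.29 and -0.35, were the closest of the lower enzymes to the median of their preparation (-0.25).

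The order of the 8 levels changed between sera. With NF serum the mean levels ran from Pgam1 (198 FPKM) through Cpt1b (50.2), Tkt (45.9), Pygb (44.9), Ckmt2 (44.7), Eno3 (25.9) and Hadh (18.1) to Gpd1 (16.1). Only Pgam1 was set apart from its neighbor there, and the ranges of every other pair of neighbors overlapped. With DCM serum the order was Pgam1 (272 FPKM), Ckmt2 (190), Cpt1b (73.5), Tkt (61.8), Gpd1 (34.1), Pygb (27.5), Eno3 (14.5) and Hadh (10.3). Here Ckmt2 was set apart from Cpt1b, and Tkt from Gpd1, while the other neighbors overlapped. Ckmt2 took 6.97%, 14.7% and 8.17% of the summed FPKM of the 8 enzymes with NF serum in preparations A, B and C, and 16.5%, 39.7% and 23.9% with DCM serum. In the DCM library of preparation B it exceeded Pgam1, at 1.34 times its level.

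The 8 enzymes also differed in how they varied from library to library. Over the 6 libraries, Pearson's r of log2 FPKM was 0.98 for Eno3 and Pygb, 0.97 for Pygb and Hadh, and 0.96 for Eno3 and Hadh. Among the higher enzymes r was 0.97 for Tkt and Gpd1, 0.94 for Tkt and Ckmt2, and 0.91 for Gpd1 and Ckmt2. Cpt1b (0.70 to 0.77) and Pgam1 (0.41 to 0.73) were less close to these 3, and r between Cpt1b and Pgam1 was 0.31. These values describe 6 libraries that share serum and preparation, and a shared difference between sera raises them. The NF library of preparation B had 1.97 times the Pygb, 2.01 times the Eno3 and 2.32 times the Hadh of preparation A, and 2.46 times the Ckmt2, whereas its Cpt1b, Tkt, Gpd1 and Pgam1 were within 0.781 and 1.21 times. Between the NF libraries of B and C, which share their sample numbers, the level in C was 0.574 times that in B for Ckmt2, 0.626 times for Hadh and 1.497 times for Pgam1. For Hadh, Eno3, Pygb and Pgam1 the highest NF library exceeded the lowest by more than the mean fold between sera (1.78, 1.78, 1.65 and 1.38).

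**Figure D3:**
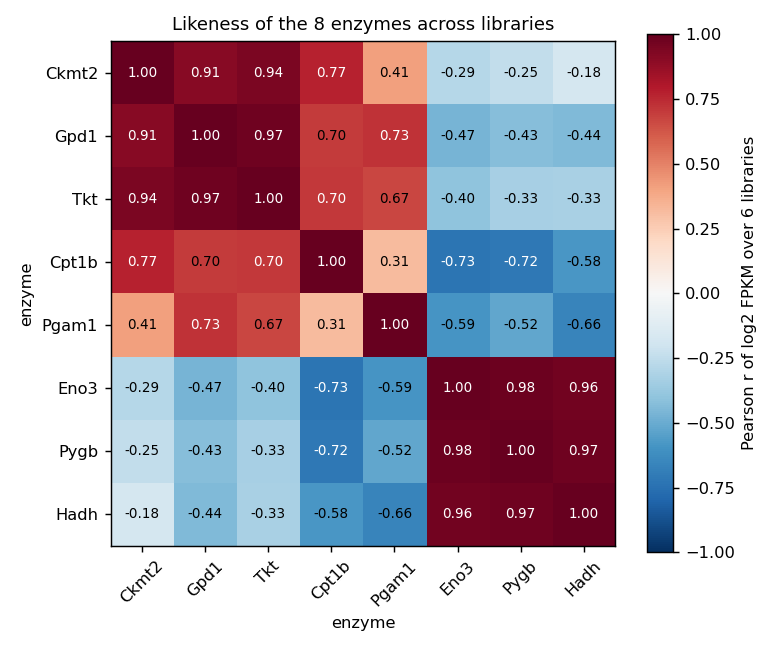
Pearson's r of log2 FPKM over the 6 libraries for each pair of enzymes (both axes list the 8 enzymes, and color and number give r). Eno3, Pygb and Hadh form a block with r from 0.96 to 0.98, and Ckmt2, Gpd1 and Tkt one with r from 0.91 to 0.97.

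The other gene of the table most like each enzyme over the 6 libraries was found by the same measure, again as a description. Pecam1, an adhesion molecule of endothelial cells, was closest to Pgam1 (r = 0.989), at a far lower level of 1.92 FPKM with NF serum and 2.85 FPKM with DCM serum. Rapgef5, an activator of Rap GTPases, was closest to Tkt (r = 0.993), Slc31a2, a copper transporter, to Gpd1 (r = 0.994), Itga9, an integrin chain, to Cpt1b (r = 0.978) and Epb4.1, a protein of the membrane skeleton, to Ckmt2 (r = 0.993). Pde4a, a phosphodiesterase, was closest to Pygb (r = 0.997), Sphkap, an anchor of protein kinase A, to Eno3 (r = 0.997) and Btbd1 to Hadh (r = 0.993). Above r = 0.95 there were 198, 173 and 113 other rows for Pygb, Eno3 and Hadh, and 19 for Ckmt2, 15 for Tkt, 9 for Pgam1, 7 for Gpd1 and 4 for Cpt1b. The table holds 2969 lower and 252 higher rows, so these counts are not comparable between lower and higher enzymes.

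Other genes of energy metabolism were called about as often, and in about the same directions, as the rows of the whole table. From textbook pathways, 9 lists of 201 genes were written, of which 49 have a row in the table, 8 of them the enzymes above, and the others were not analysed here. A gene is said to have risen or fallen where the limma fit of all 3221 rows, with preparation as a block, gave an adjusted p under 0.10 (Benjamini-Hochberg). Of the 41 other genes, 2 rose, 26 fell and 13 did not pass, beside 6.24% of all rows called higher and 61.6% called lower. Their median log2 ratio was -0.28, against -0.29 for the whole table, so these counts show nothing particular to energy metabolism. Without preparation A, B or C, 17, 5 and 7 of the 41 fell and 1 rose each time, and 4 fell and 2 rose after each library was centred on its median. The fit without the block called none of them, with 4 lower and 0 higher at an unadjusted p under 0.05, beside 454 lower and 79 higher of all rows. Because the selection of the table used this same contrast, passing the fit is no independent support.

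**Figure D4:**
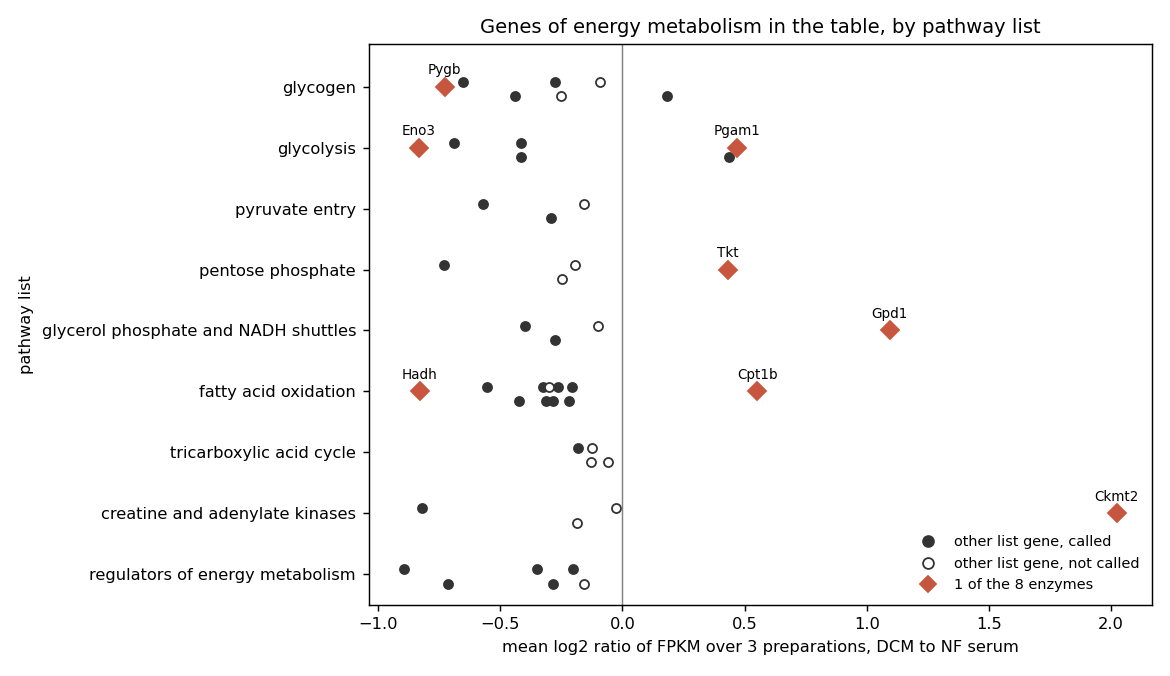
Mean log2 ratio of DCM to NF FPKM over 3 preparations (horizontal axis) for the 49 genes of the 9 pathway lists (vertical axis) that have a row in the table. Diamonds are the 8 enzymes, filled circles other genes called by the paired limma fit and open circles those not called, and small vertical shifts only separate the points. Apart from the diamonds, 2 of 41 genes lie to the right of 0, 1 in glycogen metabolism and 1 in glycolysis.

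Around Pygb, 6 of the 26 other listed genes of glycogen metabolism have a row in the table, of which 1 rose and 3 fell. Phkb, a regulatory subunit of the kinase that activates glycogen phosphorylase, had a log2 ratio of -0.65 ± 0.20 (limma adjusted p = 0.0278), close to that of Pygb. Ppp1r3d, which targets a phosphatase to glycogen, had -0.44 ± 0.31 (limma adjusted p = 0.0581), and Pgm2, a phosphoglucomutase, had -0.28 ± 0.12 (limma adjusted p = 0.0619). Stbd1, which binds glycogen, rose by a log2 ratio of 0.18 ± 0.04 (limma adjusted p = 0.0865), a call that was lost when any 1 preparation was left out. Phkb stayed called whichever preparation was left out, Ppp1r3d and Pgm2 only without A, and none of these 3 was called after centring. The lysosomal glucosidase Gaa, at -0.25 ± 0.28, did not pass.

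Around Pgam1 and Eno3, 4 of the 36 other listed glycolysis genes have a row, and 1 rose and 3 fell. Pfkfb2 is the heart form of the enzyme that makes the activator of phosphofructokinase. Its level was 7.45, 6.38 and 5.28 FPKM with NF serum in preparations A, B and C and 10.0, 9.16 and 6.79 FPKM with DCM serum. Its groups overlapped by the DCM library of C, and its log2 ratio of 0.44 ± 0.08 (limma adjusted p = 0.0321) stayed called whichever preparation was left out. Pfkm, the muscle phosphofructokinase itself, fell with -0.69 ± 0.37 (limma adjusted p = 0.0397). Ldhd, a D-lactate dehydrogenase, had -0.42 ± 0.09 and Bpgm, which makes bisphosphoglycerate, had -0.41 ± 0.27 (limma adjusted p = 0.0398 and 0.0548). Pfkm was not called without preparation A or B, and Ldhd and Bpgm were called only without A. After centring, Pfkm and Pfkfb2 stayed called and Ldhd and Bpgm did not. Among genes that govern the entry of pyruvate into mitochondria, Pdp1, a phosphatase that activates pyruvate dehydrogenase, fell with -0.57 ± 0.33 (limma adjusted p = 0.0447), and Pdk3, a kinase that inactivates it, fell with -0.29 ± 0.24 (limma adjusted p = 0.0939). Pdpr, a regulator of that phosphatase, did not pass at -0.16 ± 0.18. Pdp1 stayed called whichever preparation was left out and after centring, and Pdk3 in none of these fits.

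Around Tkt, 3 of the 14 other listed pentose phosphate genes have a row, and all 3 had negative ratios. Prps2, which makes the ribose donor for nucleotides, fell with -0.73 ± 0.56 (limma adjusted p = 0.061), with log2 ratios of -0.08 in preparation A and -1.05 and -1.06 in B and C. Taldo1, transaldolase, the partner of transketolase in the nonoxidative branch, had -0.19 ± 0.16, and Rpia, which converts ribulose phosphate to ribose phosphate, had -0.25 ± 0.25, and neither passed. Around Gpd1, Gpam, which uses glycerol phosphate to begin glycerolipid synthesis, fell with -0.40 ± 0.30 (limma adjusted p = 0.0641). Slc25a11, a carrier of the malate-aspartate shuttle, fell with -0.28 ± 0.22 (limma adjusted p = 0.0776), and Got2, an aminotransferase of that shuttle, did not pass at -0.10 ± 0.15. Slc25a11 was not called when any 1 preparation was left out, Prps2 and Gpam were called only without A, and none of the 3 was called after centring.

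Around Cpt1b and Hadh, 9 of the 35 other listed genes of fatty acid use have a row. Of these, 8 fell and none rose, in a table where 61.6% of all rows were called lower. After centring none of the 8 was called, and 3, 1 and 3 were without preparation A, B or C. Cpt1c, the brain relative of Cpt1b, had a mean of 2.37 FPKM with NF serum and 1.69 FPKM with DCM serum, and fell with -0.55 ± 0.34 (limma adjusted p = 0.0481). The acyl-CoA dehydrogenases Acad10 and Acads had -0.42 ± 0.45 and -0.33 ± 0.19, and Eci1, an enoyl-CoA isomerase, had -0.31 ± 0.20 (limma adjusted p from 0.0565 to 0.0942). The mean ratio of Cpt1b (0.55 ± 0.09) lay on the other side of 0 from those of all 9 before centring. Without preparation A, B or C, Cpt1c, Acad10 and Acads stayed called only without C, and Eci1 only without B. Of the 4 genes of the tricarboxylic acid cycle with a row, 1 fell. This was Sdhd, a membrane anchor of succinate dehydrogenase, with -0.18 ± 0.07 (limma adjusted p = 0.0867). Sdhc, Suclg2 and Sucla2 had ratios from -0.13 to -0.06 and did not pass. Sdhd was not called when any 1 preparation was left out or after centring.

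Around Ckmt2, the 3 other genes of phosphate transfer went down or did not pass. Gatm, which makes the precursor of creatine, was at 4.35, 4.15 and 8.39 FPKM with NF serum in preparations A, B and C and at 2.92, 2.07 and 4.57 FPKM with DCM serum. Gatm fell with -0.82 ± 0.22 (limma adjusted p = 0.026) and stayed called whichever preparation was left out and after centring. The adenylate kinase Ak1 had -0.19 ± 0.14 and did not pass. Of 6 regulators of energy metabolism with a row, 5 fell and none rose, beside the 61.6% of all rows called lower. After centring only Prkag2 of these 5 was called. They included Prkag3 and Prkag2, subunits of the AMP-activated kinase, with -0.89 ± 0.32 and -0.71 ± 0.57, Hif1a, a transcription factor of the hypoxia response, with -0.35 ± 0.16, and Esrrg, a nuclear receptor of mitochondrial genes, with -0.28 ± 0.04 (limma adjusted p from 0.0389 to 0.0585). Without preparation A all 4 stayed called, without B only Prkag3 did and without C none did. Prkag3 was at a low mean level of 1.62 FPKM with NF serum and 0.854 FPKM with DCM serum. The fit on log2(FPKM + 1) gave it a difference of -0.48.

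Markers of cell types in the cultures differed between libraries, and their part in the values of the 8 enzymes was not tested. In the paired limma fit, Mybpc3, Postn, Lum and Tagln were called lower and Pecam1 higher, whereas Myl2 and Vim did not pass (limma adjusted p = 0.165 and 0.138), beside 67.8% of all rows called. In bulk RNA, fewer cells of a type and less RNA per cell cannot be told apart. Of 15 markers of cardiomyocytes 2 have a row, Myl2, the ventricular myosin light chain, and Mybpc3, a myosin-binding protein of the sarcomere. Myl2 was at 9235 to 11358 FPKM with NF serum and at 6628 to 11269 FPKM with DCM serum, so a defining marker of the labelled cell type was abundant in every library. The summed level of both was 6847 FPKM in the DCM library of preparation A, where Eno3, Pygb and Hadh also had their lowest values, and 9047 to 11698 FPKM in the other 5 libraries. Among the NF libraries, these 3 enzymes were lowest in A, where the sum was 10595 FPKM. They were highest in B, where the sum was lower, at 9603 FPKM. Most of that sum was Myl2. Mybpc3 alone was at 294, 368 and 340 FPKM with NF serum in A, B and C, the same order as these 3 enzymes. With DCM serum Mybpc3 was at 220, 334 and 319 FPKM, whereas the 3 enzymes were highest in C. Of 12 fibroblast markers 3 have a row (Lum, Postn and Vim), with a summed level of 199 to 284 FPKM with NF serum and 142 to 250 FPKM with DCM serum. Of 8 smooth muscle and pericyte markers only Tagln has a row, at 112 to 146 FPKM with NF serum and 70.4 to 116 FPKM with DCM serum. Of 8 endothelial markers only Pecam1 has a row, at 1.51 to 2.19 FPKM with NF serum and 2.34 to 3.22 FPKM with DCM serum, and each DCM value was above all NF values. None of 8 markers of macrophages and lymphocytes and none of 6 of erythroid cells has a row, and no marker with a row was at 0 in any library. A gene without a row may only have failed the authors' selection, and most cardiomyocyte markers lack a row too. Missing rows therefore do not show that a cell type was absent.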

How the data were processed

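The authors checked single-end directional reads with FastQC, aligned them with GSNAP to the Rnor_5.0 build and computed FPKM with Cufflinks (versions not given in the sources used here). They removed genes with low variance (under 0.1), which was checked on the table (smallest variance 0.1). The deposited FPKM table holds only rows with an authors' q under 0.10, and no value is 0. It gives no read counts, so the depth behind single values is unknown. The deposited signed fold changes (other values), the mean ratio and the p-values and q-values of the authors' own comparison were not used for any result, except that the headers of the ratio columns name which DCM library was divided by which NF library. All 3221 rows matched these ratios (relative tolerance 0.0001). The deviation of an NF library from its group mean correlated with that of its partner at 0.873, 0.743 and 0.741 in preparations A, B and C. With DCM libraries of other preparations it correlated at -0.706 to 0.235. The rows were selected on ratios within these same pairs, which favours such a correlation, so it is no independent check of the pairing.

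The sera were compared by a moderated linear model (limma 3.58.1 in R 4.3.3) on log2(FPKM + 1) of all rows with preparation as a block (2 residual and 3.11 prior degrees of freedom), at a Benjamini-Hochberg adjusted p under 0.10. Whether replicates differ by serum donor is not clear from the labels, so p-values measure the spread between these preparations. Ratios of the 8 enzymes and of the other list genes use FPKM without a pseudocount, whereas the adjusted p beside them is from the fit. At low FPKM the fitted log2 difference is smaller than the ratio, at -0.48 for Prkag3, -0.50 for Prps2 and -0.65 for Gatm. The members, lists and motifs were chosen with earlier results of these data known. Besides the 8 enzymes, up to 4 called genes per list and direction were named, with the nearest gene by Pearson's r (loci without a gene name left out). Genes of a list that did not pass were named after their values were seen. Alternatives were no block, a pseudocount of 0.1, a mean of at least 1 FPKM, centring on library medians, a threshold of 0.05 and omission of each preparation. Promoters are from RefSeq (GRCr8), for 6 of 8 enzymes. Other steps used Python 3.11, pandas 2.3.3 and numpy 2.4.6. Some genes of the lists are counted but not reported by name here.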

Additional observations from a re-analysis of the deposited data

How the results depend on the processing

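Without the replicate block, 3 higher and 1 lower genes were called in the table, against 201 and 1984 with it, and 0 of the 49 genes of energy metabolism in either direction, against 7 higher and 29 lower, where 5 and 5 had an unadjusted p under 0.05. None of the 8 enzymes was called by that fit. All 5 higher and 1 of 3 lower enzymes had an unadjusted p under 0.05, beside 79 higher and 454 lower of all rows. The 8 enzymes were chosen with this contrast known, so nothing is read from that count. Centring on library medians raises each log2 ratio without a pseudocount by 0.288 on average. In the centred fit, on log2(FPKM + 1), 254 genes of the table were higher and 288 lower. For energy metabolism 7 were higher and 7 lower in that fit. At an adjusted p under 0.05 without centring, 715 genes of the table and 12 of energy metabolism were lower. Without preparation A, B or C, higher genes of the table numbered from 97 to 140 and lower ones from 461 to 1164, and for energy metabolism 6 were higher each time and 7 to 19 lower. The pseudocount of 0.1 and the filter at 1 FPKM left every count of calls within 1.5 times. Of 48 recomputed mean ratios of the 8 enzymes, 0 reversed and 6 moved by more than 1 SD. These 6 moved by centring: -0.54 for Eno3, 0.76 for Pgam1, 0.72 for Tkt, 1.38 for Gpd1, 0.84 for Cpt1b and 2.31 for Ckmt2. Only the 3 lower enzymes could have reversed, and only by centring. Each enzyme had 1 direction in all 3 preparations, a pseudocount keeps the sign of a ratio, and the mean is the same without the block. The lack of reversals was therefore mostly fixed in advance. Over omitted preparations the mean ratio ranged from 1.94 to 2.16 for Ckmt2 and from -1.10 to -0.65 for Hadh. The cause of these shifts was not tested. Only genes selected on this same contrast were available to the fit, and 3 preparations limit the precision.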
